A study of Mus musculus with 28 samples.

Results

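The comparison set 7 Lgr5-high libraries against 7 Lgr5-low libraries of mice fed the control diet, which is 14 of the 28 RNA sequencing libraries of the series. The libraries were chosen by their labels alone, and each difference is given as Lgr5-high minus Lgr5-low. In both groups the labels give the small intestine as the tissue, Lgr5-GFP as the genotype and the control diet as the treatment, so the groups differ only in the sorted population. Lgr5-GFP is a reporter that makes cells with an active Lgr5 gene fluoresce green. The other 14 libraries have the same genotype and populations, from mice fed a cystine diet, and serve here as separate libraries in which the same difference was measured. The design text speaks of cell populations taken from the intestine, whereas the extraction protocol in the labels names organoids, and which applies is not settled by the sources used here. The sources used here give neither the sorting gates nor the ages of the mice nor the number of animals behind a library. The p-values therefore measure the spread between libraries, which may be technical.

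Lgr5 encodes a receptor for R-spondins, secreted proteins that strengthen Wnt signalling, and it marks the stem cells at the base of intestinal crypts. These cells divide and renew themselves between Paneth cells. Their daughters leave the crypt base and become absorptive enterocytes where Notch signalling is active, or secretory cells (goblet, enteroendocrine, tuft and Paneth cells) where it is not. A sort on green fluorescence places stem cells in the high population, while early daughters and other epithelial cells can fall in the low one.

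Total counts ranged from 4.05 to 21.4 M in the Lgr5-high libraries and from 3.09 to 18.9 M in the Lgr5-low libraries, with medians of 15.4 and 7.3 M. The mean difference of 0.863 on the log2 scale did not pass (two-sided exact permutation test, p = 0.0763). It passed without Lgr5-low replicate 4 (1.09, exact permutation p = 0.0262) or Lgr5-high replicate 1 (1.15, p = 0.0105), and the part of depth in the results below was not tested. Mitochondrially encoded transcripts made up 15.3% to 23% of the counts in Lgr5-high and 14.8% to 19.2% in Lgr5-low libraries (exact permutation test, p = 0.125). Lgr5-low replicates 1 and 3 and Lgr5-high replicate 1 stood apart from their groups in several of the genes below, and Lgr5-high replicate 1 was also the shallowest library of its group. Results that rest on them are given with and without them. By Xist, replicates 1 to 3 of both groups formed a male class and replicates 4 to 7 a female class, which the labels do not give. The 3 libraries that stood apart are all of the male class, so leaving them out also changes the balance of the classes.

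Levels are given in CPM, the usual per-library scaling of counts to a common total, with TMM factors. A gene was called when its adjusted p was under 0.05 in edgeR's quasi-likelihood test with Benjamini-Hochberg adjustment over 12495 genes. Every adjusted p below comes from that test unless another tool is named. On the control diet 225 genes were called, 1.8% of those tested, with 98 higher in Lgr5-high cells (0.784%) and 127 lower (1.02%). The difference exceeded 2-fold in 59 of the higher and 74 of the lower genes. The plot of fold change against mean level shows calls in both directions among rare and abundant transcripts, and 8 of the higher and 5 of the lower genes averaged under 2 CPM. In 38 of the higher and 45 of the lower genes all 7 libraries of one population lay beyond all 7 of the other. Such separation occurred in 0.472% of all genes upward and in 0.488% downward. Without replicates 1 and 3 of the Lgr5-low group and replicate 1 of the Lgr5-high group, 449 genes were called, 172 of the 225 among them. Of the genes described below, Khk, Rbpj, Mdh2, Idh1, Manf, Ddost, Gcg, Sct, Guca2a, Malat1, Sap18b, Tsix and Pmm2 were not called there (adjusted p = 0.0534 to 0.198). Without libraries under 5 M counts 159 genes were called, 120 of the 225 among them. Not called there, of the genes below, were Idh1, Npm1, Sap18b, Malat1, B4galnt2, mt-Nd4l, Rbpj, Gcnt3, Dkc1 and Gm43259 (adjusted p = 0.153 to 0.251). Nor were Nop56, Hes1, Slc28a3, Tsix, Hk2, Hmgn3, Aqp4, Cpe, Ddost and Gmppb (0.066 to 0.151). The same held for Acss3, Nqo1, Rnf43, Fstl1, Guca2a, Mdh2, Sfrp5, Manf, Btd and Ccdc3 (0.0501 to 0.0615). Leaving out 1 library gave 124 calls (without Lgr5-high replicate 5) to 456 (without Lgr5-low replicate 3), with 139, 146 and 147 without Lgr5-low replicate 1, Lgr5-low replicate 6 and Lgr5-high replicate 4. Within the female class, 4 libraries against 4, 674 genes were called and 61% of them were higher. Within the male class, 3 against 3, 31 were called and 16.1% were higher. With only the 14 control-diet libraries fitted, 127 genes were called, 118 of the 225 among them, and 211 of the 225 were tested. Of the genes below, B4galnt2, Ddost, Dkc1, Gapdh, Gpx1, Guca2a, Hmgn3, Khk and Lss were not called there (adjusted p = 0.0513 to 0.0835). Nor were Mdh2, Msmo1, Npm1, Paics, Rbpj, Rnf43, Sap18b, Slc28a3 and mt-Nd4l (0.0513 to 0.107).

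**Figure D1:**
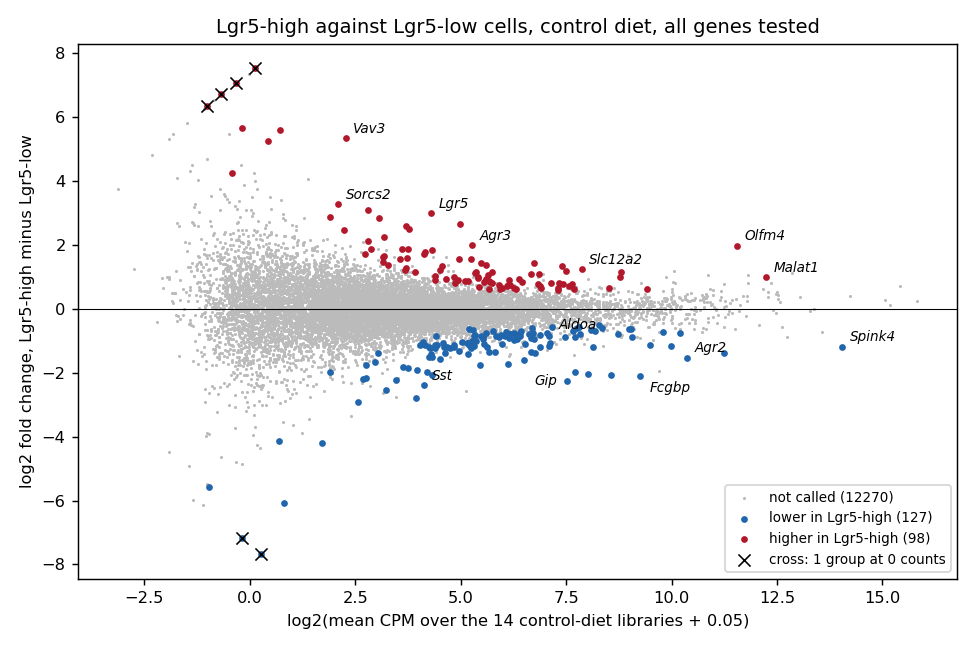
Log2 fold change (Lgr5-high minus Lgr5-low, control diet) of 12495 genes against the log2 of their mean CPM over 14 libraries; each dot is a gene, red called higher (98), blue called lower (127) and grey not called. Crosses mark 6 called genes with 0 counts in all 7 libraries of 1 population, whose plotted fold change depends on the fit and is no measured size.

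Genes that mark crypt base stem cells were among those higher in the Lgr5-high libraries. Fold changes are given on the log2 scale with their standard error (SE). Lgr5 itself, the gene behind the sort, lay between 21.5 and 45.1 CPM (median 33.2) in Lgr5-high and between 0.214 and 10 CPM (median 4.09) in Lgr5-low libraries. The groups did not overlap, and the 2 lowest levels, 0.337 and 0.214 CPM, were those of Lgr5-low replicates 1 and 2. Its log2 fold change was 2.99 ± 0.43 (SE, adjusted p = 9.85e-05). Because the sort read out this gene, its difference is a check of the labels. A lower level in bulk RNA can come from fewer cells of a type or from less RNA per cell, and these cannot be told apart here.

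Of the 40 tested genes in the crypt base stem cell list, 16 were called higher, 0 were called lower and all 40 had positive fold changes, from 0.087 to 5.35 (median 1.16, against -0.00975 over all genes). The list was drawn up with earlier results of these data known, so its direction is not independent evidence. Leaving out any single library gave 12 to 21 calls, and leaving out the 3 libraries that stood apart gave 20. Within the female and male classes 19 and 4 were called, and Lgr5 differed by 2.56 and 4.27 on the log2 scale. The members Lgr4, a relative of Lgr5 (0.087), Myb (0.53) and Prom1 (0.57) had the smallest fold changes, for which they were picked, and were not called.

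Olfm4, which encodes the secreted protein olfactomedin 4 and lies on chromosome 14 (79984081 to 80023139, GRCm38), had the lowest p of all genes. It lay between 2885 and 6318 CPM (median 4962) in Lgr5-high and between 566 and 2290 CPM (median 1074) in Lgr5-low libraries, with no overlap. Vav3, an exchange factor that activates Rac GTPases, was nearly absent from the low population. It measured 2.5 to 20 CPM (median 8.59) in Lgr5-high libraries, had 0 counts in 4 of 7 Lgr5-low libraries and reached 0.847 CPM in the highest of them. Soat1, an enzyme that esterifies cholesterol for storage, lay between 44.7 and 84.5 CPM against 15.5 and 45.9 CPM. The ranges overlapped narrowly, and its log2 fold change was 1.43 ± 0.23 (adjusted p = 0.000466).

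Further members of the list spanned signalling, adhesion and cell division. Cdca7, a Myc-regulated gene of dividing cells, lay between 208 and 338 CPM against 50.6 and 241 CPM (log2 fold change 1.20 ± 0.23, adjusted p = 0.00351). Rgmb, a co-receptor for bone morphogenetic proteins (BMPs), lay between 36.7 and 76 CPM against 11.1 and 37.1 CPM (1.14 ± 0.22, adjusted p = 0.00367). The ranges of Rgmb overlapped only at their edges, whereas Cdca7 in Lgr5-low replicate 3 lay above the Lgr5-high median of 239 CPM. Smoc2, a matrix-associated calcium-binding protein, lay between 65.1 and 137 CPM against 35.9 and 77.5 CPM (0.93 ± 0.19, adjusted p = 0.00569). Its group medians were 109 and 54.2 CPM.

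Genes of the Wnt pathway were tested as a list of 36, of which 5 were called higher, 0 lower, with a median of 0.657. The 5 were Lgr5, Ascl2, Myc, Sfrp5 and Rnf43, and leaving out any single library gave 4 to 7 calls. Lgr5, the gene the sort read out, is counted in each of these numbers, and its call is only a check of the labels. Ascl2, the transcription factor that maintains stem cell identity, lay between 19.7 and 45.6 CPM in Lgr5-high and between 2.19 and 16.4 CPM in Lgr5-low libraries, without overlap. Myc, the growth regulator downstream of Wnt, lay between 21 and 51.6 CPM against 4.89 and 18.6 CPM, again without overlap (log2 fold change 1.22 ± 0.25, adjusted p = 0.00533). The lowest of these levels was that of Lgr5-low replicate 1. Sfrp5, a secreted Wnt antagonist, measured 9.07 to 25.6 CPM against 0 to 8.33 CPM (2.25 ± 0.49, adjusted p = 0.0107), and did not pass without libraries under 5 M counts (adjusted p = 0.0532). Rnf43 removes Wnt receptors from the surface, and measured 17.7 to 43.5 CPM against 7.59 to 29 CPM (0.95 ± 0.25, adjusted p = 0.0395). Its call was lost without any one of Lgr5-low replicates 1, 2, 4, 6 or 7 or Lgr5-high replicates 2 to 7 (adjusted p up to 0.102).

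In the Notch list 2 of 18 tested genes were called higher and 0 lower, while the list's median was -0.184. Hes1, the Notch-induced repressor that favours absorptive fate, lay between 105 and 189 CPM (median 131) in Lgr5-high and between 28.1 and 110 CPM (median 54.1) in Lgr5-low libraries. Rbpj, the DNA-binding partner of Notch, lay between 6.62 and 21.3 CPM against 1.86 and 8.8 CPM. Their log2 fold changes were 1.09 ± 0.26 (adjusted p = 0.0204) and 1.47 ± 0.4 (adjusted p = 0.0427). Hes1 was no longer called without any one of Lgr5-low replicates 5 to 7 or Lgr5-high replicates 1 to 3 (adjusted p up to 0.0639). Rbpj lost its call without any one of Lgr5-low replicates 1, 2, 3, 5 or 7 or Lgr5-high replicates 1 or 3 to 7 (adjusted p up to 0.0983).

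Receptors and ligands of other crypt pathways gave few calls. Among 28 tested genes of BMP, TGF-beta and activin signalling 2 were higher, Rgmb and the secreted follistatin-like protein Fstl1. Fstl1 measured 4.62 to 18.6 CPM against 0 to 4.24 CPM (3.10 ± 0.70, adjusted p = 0.0122, and 0.0578 without libraries under 5 M counts). None of 25 ERBB and receptor tyrosine kinase genes and none of 10 Eph receptors and ephrins was called. Of the 11 genes tested as markers of reserve stem cells 0 were called. Hopx, one of them, lay between 11.9 and 19.6 CPM against 3.59 and 10.3 CPM, which is a separation of all libraries, but its adjusted p was 0.0636.

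**Figure D2:**
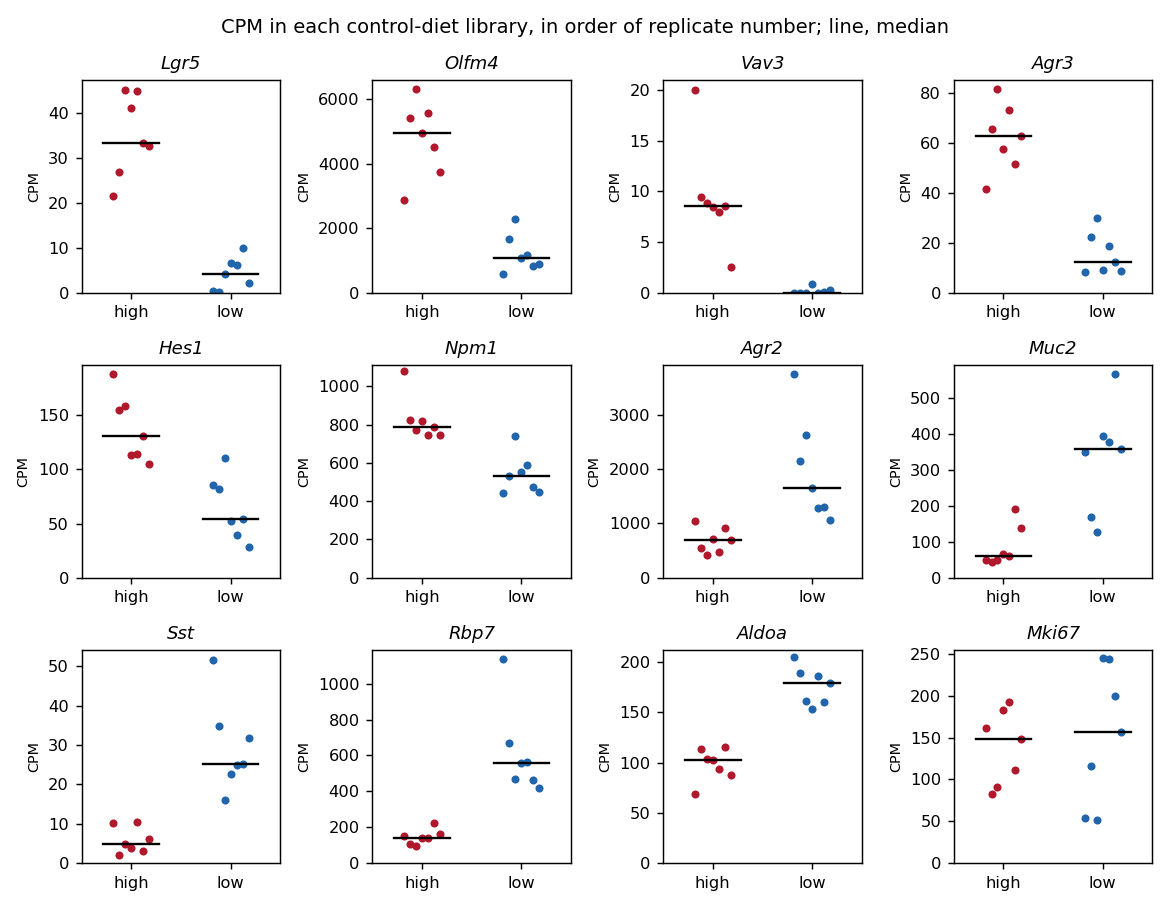
CPM of 12 genes in each control-diet library; red, 7 Lgr5-high libraries, blue, 7 Lgr5-low libraries, in order of replicate number, with a line at the median. Lgr5, Olfm4, Vav3, Agr3 and, narrowly, Npm1 separate completely upward, Sst, Rbp7, Aldoa and, narrowly, Agr2 downward, and the proliferation gene Mki67 overlaps fully (82.2 to 192 CPM against 51 to 245 CPM).

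Several genes of lowest p lay outside the stem cell and Wnt lists. Cabcoco1, a coiled-coil gene on chromosome 10, measured 11.6 to 29.4 CPM in Lgr5-high and 0.592 to 6.4 CPM in Lgr5-low libraries. Rgcc, a regulator of the cell cycle, measured 17.6 to 29.8 CPM against 0.337 to 8 CPM, the lowest in Lgr5-low replicate 1. Neither gene overlapped between the groups, and both calls held when any single library was left out. Zbtb38, a zinc finger protein that binds methylated DNA, lay between 53.4 and 77.2 CPM against 13.3 and 40.1 CPM (log2 fold change 1.36 ± 0.23, adjusted p = 0.000613). Jaml, a junctional adhesion molecule, lay between 175 and 298 CPM against 49.8 and 183 CPM (1.35 ± 0.25, adjusted p = 0.00185). Prelp, a leucine-rich proteoglycan of connective tissue matrix, lay between 30.6 and 69.3 CPM against 3.37 and 34.4 CPM (1.56 ± 0.30, adjusted p = 0.00351). The last 2 overlapped by 1 or a few libraries at the edge of the ranges. In the SORCS and sortilin family only Sorcs2 was called, at 5.07 to 13.2 CPM against 0.112 to 1.38 CPM, while Sorl1 and Sort1 had fold changes of 0.18 and 0.06. No test compared these members with each other.

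The list of ion channels and transporters of crypt secretion held calls in both directions. Of 35 tested, 2 were higher and 3 lower. Higher calls numbered 4 without Lgr5-low replicate 3 and 1 without any one of Lgr5-low replicates 1, 2, 4 or 6 or Lgr5-high replicates 1 to 5 or 7. Lower calls numbered 4 without Lgr5-high replicate 7, 1 without any one of Lgr5-low replicates 4 or 6 or Lgr5-high replicates 2 to 5, and 0 without Lgr5-low replicate 1. Slc12a2, the cotransporter that loads cells with chloride, lay between 259 and 423 CPM against 55.5 and 192 CPM, the lowest in Lgr5-low replicate 1. Aqp4, a water channel, lay between 29.4 and 47.1 CPM against 11.9 and 29.1 CPM (1.01 ± 0.27, adjusted p = 0.0357). Neither overlapped, but the call of Aqp4 was lost without any one of Lgr5-low replicates 1, 2, 4 or 6 or Lgr5-high replicates 1 to 5 or 7 (adjusted p up to 0.0901). Lower were Clca1, Guca2a and the nucleoside transporter Slc28a3, the first 2 of them also goblet cell products. Because the list holds such products too, its lower calls are not those of fluid transporters alone. Guca2a was not called without any one of Lgr5-low replicates 1, 3, 4 or 6 or Lgr5-high replicates 2 to 5 (adjusted p up to 0.144), and Slc28a3 without any one of Lgr5-low replicates 1, 2, 4, 6 or 7 or Lgr5-high replicates 1 to 5 (up to 0.0916).

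The closest relatives among the genes of lowest p went in opposite directions. Agr2 and Agr3 encode anterior gradient proteins, disulfide isomerases of the endoplasmic reticulum (ER), and Agr2 is needed for mucin folding in goblet cells. The genes are neighbours on the forward strand of chromosome 12 (GRCm38), Agr3 at 35925620 to 35949736 and Agr2 at 35992907 to 36004087, with 43170 bases and 0 annotated genes between them. Agr3 measured 41.5 to 81.5 CPM (median 62.6) in Lgr5-high and 8.27 to 30 CPM (median 12.1) in Lgr5-low libraries. Agr2 measured 425 to 1043 CPM (median 688) in Lgr5-high and 1054 to 3748 CPM (median 1642) in Lgr5-low libraries. Neither gene overlapped between the groups, and the highest Agr2 level was that of Lgr5-low replicate 1. The log2 fold change of Agr3 was 1.99 ± 0.27 (adjusted p = 3.96e-05) and that of Agr2 was -1.52 ± 0.25 (adjusted p = 0.000608). Agr3 was not called within the male class (adjusted p = 0.109), nor Agr2 within the female class (0.0833). Over the alternatives the log2 fold changes lay between 1.65 and 2.35 for Agr3 and between -2.08 and -0.921 for Agr2. The log2 ratio of their CPM values, Agr3 over Agr2, lay between -4.65 and -2.38 in Lgr5-high and between -8.82 and -6.11 in Lgr5-low libraries. The sequences just upstream of the pair are shown because these neighbours of one family separated the populations in opposite directions. They are the 250 bases before the RefSeq start (GRCm38.p6), 5′ to 3′ on the forward strand, chr12:35925371-35925620 for Agr3 and chr12:35992675-35992924 for Agr2, in lower case throughout because none of 3 motifs searched was found in them.
Agr3: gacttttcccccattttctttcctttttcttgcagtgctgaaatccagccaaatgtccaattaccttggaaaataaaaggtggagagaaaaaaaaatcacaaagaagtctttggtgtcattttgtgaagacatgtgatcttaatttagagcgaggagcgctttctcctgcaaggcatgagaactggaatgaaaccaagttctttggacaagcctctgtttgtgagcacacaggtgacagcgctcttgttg
Agr2: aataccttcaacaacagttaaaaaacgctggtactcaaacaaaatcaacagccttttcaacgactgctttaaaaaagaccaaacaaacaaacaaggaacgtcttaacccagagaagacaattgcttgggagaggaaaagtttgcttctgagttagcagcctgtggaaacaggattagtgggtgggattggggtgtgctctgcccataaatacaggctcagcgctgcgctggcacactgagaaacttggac

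The motifs were CTTTGA, the core bound by the Wnt effectors TCF and LEF, CAGCTG, an E-box bound by helix-loop-helix factors such as Ascl2, and CCACG, the core of an unfolded protein response element, each on both strands. In windows of 300 bases, 250 before to 50 after each RefSeq start, CTTTGA was found in 19.2% of 99 promoters of genes called higher, 11.4% of 114 promoters of genes called lower, 12.7% of the promoters of all genes tested and 16.0% of all 32851 promoters. In the same order CAGCTG was found in 17.2%, 21.1%, 14.7% and 16.3%, and CCACG in 40.4%, 40.4%, 46.1% and 32.8%. The share of CCACG in the called genes was thus below that of the genes tested and above that of all promoters. Of the 15 genes of lowest p called higher 12 had a promoter entry, and CTTTGA stood within the 250 upstream bases of 1 of them, Zbtb38. These shares describe letters only, and binding was not measured.

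Goblet cell genes were lower in the Lgr5-high libraries. Goblet cells make the mucus that covers the epithelium. Of the 29 tested genes of their list 11 were called lower, 0 were called higher and 28 had negative fold changes (median -1.34). Leaving out any single library gave 9 to 13 calls, and leaving out the 3 libraries that stood apart gave 12. Muc2, the gel-forming mucin, lay between 43.2 and 192 CPM (median 62.1) in Lgr5-high and between 126 and 567 CPM (median 360) in Lgr5-low libraries. The ranges overlapped through 2 libraries on each side. Its log2 fold change was -1.96 ± 0.41 (adjusted p = 0.0114).

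Fcgbp, which binds mucin in the mucus layer, lay between 153 and 372 CPM against 360 and 1471 CPM, overlapping only at the edge. Tff3, a trefoil peptide of the mucus, lay between 830 and 2295 CPM against 1695 and 7735 CPM (-1.37 ± 0.28, adjusted p = 0.0053). Spink4, a protease inhibitor of secretory cells, was the most abundant of the called genes by CPM, at 5149.6 to 16506 CPM against 19109 to 36253 CPM without overlap (-1.19 ± 0.25, adjusted p = 0.00639). In Lgr5-high libraries Spink4 followed the Xist classes, with at most 6855 CPM in the male and at least 11020 CPM in the female ones. Over the alternatives its log2 fold change lay between -2.30 and -0.545. Clca1, a secreted metalloprotease of mucus, lay between 35.3 and 211 CPM against 221 and 1087 CPM, also without overlap. It lost its call without Lgr5-low replicate 1 (adjusted p = 0.0526). Creb3l4, a transcription factor anchored in the ER, lay between 17 and 42.5 CPM against 23.9 and 117 CPM. Retnlb, the only member with a positive fold change (1.25), was not called.

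Steps of mucin glycosylation and of the secretory pathway gave fewer calls. In the list of mucin O-glycosylation and sulfation 3 of 36 tested genes were called lower and 1 higher (median -0.566). There were 5 lower calls without Lgr5-high replicate 1 or without the 3 libraries that stood apart, and 1 without Lgr5-low replicate 1 or Lgr5-high replicate 5. Gcnt3, which branches mucin sugar chains, lay between 7.15 and 15.8 CPM against 17.4 and 49.1 CPM, without overlap (-1.23 ± 0.29, adjusted p = 0.0171). B4galnt2, which completes a blood-group-like sugar on gut glycans, went the other way at 32.5 to 63 CPM against 14.4 to 32.4 CPM (0.87 ± 0.22, adjusted p = 0.0281). Gcnt3 lost its call without Lgr5-low replicate 2 (adjusted p = 0.0521), and B4galnt2 without any one of Lgr5-low replicates 2, 6 or 7 or Lgr5-high replicates 1 or 5 (adjusted p up to 0.0808). Without libraries under 5 M counts their adjusted p values were 0.157 and 0.184. Enzymes that make the sugar donors were among the lower genes outside the lists, a group picked after its values were seen. Pmm2 and Gmppb, of GDP-mannose synthesis, lay between 107 and 153 CPM against 163 and 372 CPM, and between 8.71 and 16 CPM against 18.4 and 40.3 CPM. Gmds, of GDP-fucose synthesis, lay between 41.9 and 58.5 CPM against 73.9 and 120 CPM. None of the 3 overlapped between the groups, with log2 fold changes of -0.87 ± 0.19 for Pmm2 (adjusted p = 0.0104), -1.20 ± 0.31 for Gmppb (0.0308) and -0.77 ± 0.21 for Gmds (0.0395). The calls of Gmppb and Gmds were lost without any one of 8 and 11 of the 14 libraries (adjusted p up to 0.0726 and 0.0994), Lgr5-low replicates 4, 5 and 6 and Lgr5-high replicates 2 to 5 among them in both.

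In the list of ER translocation, folding and the unfolded protein response 51 of 56 tested genes had negative fold changes (median -0.405), but only 2 were called. Manf, a secreted factor induced by ER stress, lay between 65.6 and 118 CPM against 112 and 230 CPM (-0.81 ± 0.2, adjusted p = 0.0223). Ddost, a subunit of the enzyme that attaches sugars to new proteins, lay between 59.5 and 100 CPM against 112 and 144 CPM, without overlap (-0.59 ± 0.15, adjusted p = 0.0313). Manf lost its call without Lgr5-low replicate 1 or Lgr5-high replicate 5 (adjusted p up to 0.0842), and Ddost without any one of Lgr5-low replicates 1, 6 or 7 or Lgr5-high replicates 2 to 4 (up to 0.0819). The count of lower calls in this list depended on single libraries, with 12 without Lgr5-low replicate 3, 4 without Lgr5-low replicate 2 or 5 or Lgr5-high replicate 6, 1 without Lgr5-low replicate 6 or Lgr5-high replicate 2, 3 or 5 and 0 without Lgr5-low replicate 1. Among 51 genes of ER to Golgi transport 3 were called lower (median -0.4), including Surf4, a cargo receptor, at 37.9 to 54.5 CPM against 49.1 to 109 CPM (-0.84 ± 0.17, adjusted p = 0.00533). Kdelr2, which returns ER proteins from the Golgi, lay between 19.3 and 36.5 CPM against 23.9 and 79.1 CPM (-0.999 ± 0.22, adjusted p = 0.0107). Without Lgr5-low replicate 3, 6 genes of the list were called lower.

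Hormones of enteroendocrine cells, the scattered endocrine cells of the gut lining, were lower in the Lgr5-high libraries. Of 13 tested hormone genes 7 were called lower and 0 higher, with a median of -2.06, and leaving out any single library gave 5 to 7 calls. Gip, the incretin, lay between 17.6 and 108 CPM against 135 and 547 CPM, and Sst, somatostatin, between 2.03 and 10.3 CPM against 15.9 and 51.6 CPM. Sct, secretin, lay between 4.2 and 11.6 CPM against 13.2 and 70.2 CPM (-2.06 ± 0.46, adjusted p = 0.0135). In these 3 genes the groups did not overlap. Gcg, the precursor of glucagon-like peptides, did not overlap either, at 14.2 to 44.5 CPM against 69 to 237 CPM (-1.73 ± 0.45, adjusted p = 0.043). Its call was lost without any one of 12 of the 14 libraries, all but Lgr5-low replicates 2 and 3 (adjusted p up to 0.12). Ghrl, ghrelin, lay between 7.75 and 35.4 CPM against 29.3 and 146 CPM, and Tac1, the precursor of substance P, between 2.78 and 12.6 CPM against 9.62 and 44.8 CPM, both with narrow overlap. Cck, cholecystokinin, was the seventh (-2.54 ± 0.63, adjusted p = 0.0301), lost without any one of Lgr5-low replicates 1 or 6 or Lgr5-high replicates 2, 4 or 5 (adjusted p up to 0.0796).

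Proteins that pack and process hormones were lower in part. Of 17 tested genes 3 were called lower, Chgb and Cpe among them. Chgb, a granin of the secretory granule, lay between 19.4 and 62.3 CPM against 38.9 and 223 CPM. Cpe, which trims prohormones, lay between 0.604 and 2.99 CPM against 3.03 and 19.8 CPM (-2.92 ± 0.69, adjusted p = 0.0186, and 0.0715 without libraries under 5 M counts). Chga, the related granin, measured 0 to 6.85 CPM against 2.42 to 23.4 CPM, and its adjusted p was 0.0568. Trpa1, an irritant-sensing channel of serotonin-releasing cells that was singled out after its values were seen, had 0 counts in 5 of 7 Lgr5-high libraries and a median of 3.52 CPM in Lgr5-low libraries (adjusted p = 0.00664). None of the 16 tested transcription factors of the lineage was called. Neurod1, one of them, had medians of 0.253 and 3.86 CPM (adjusted p = 0.256).

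**Figure D3:**
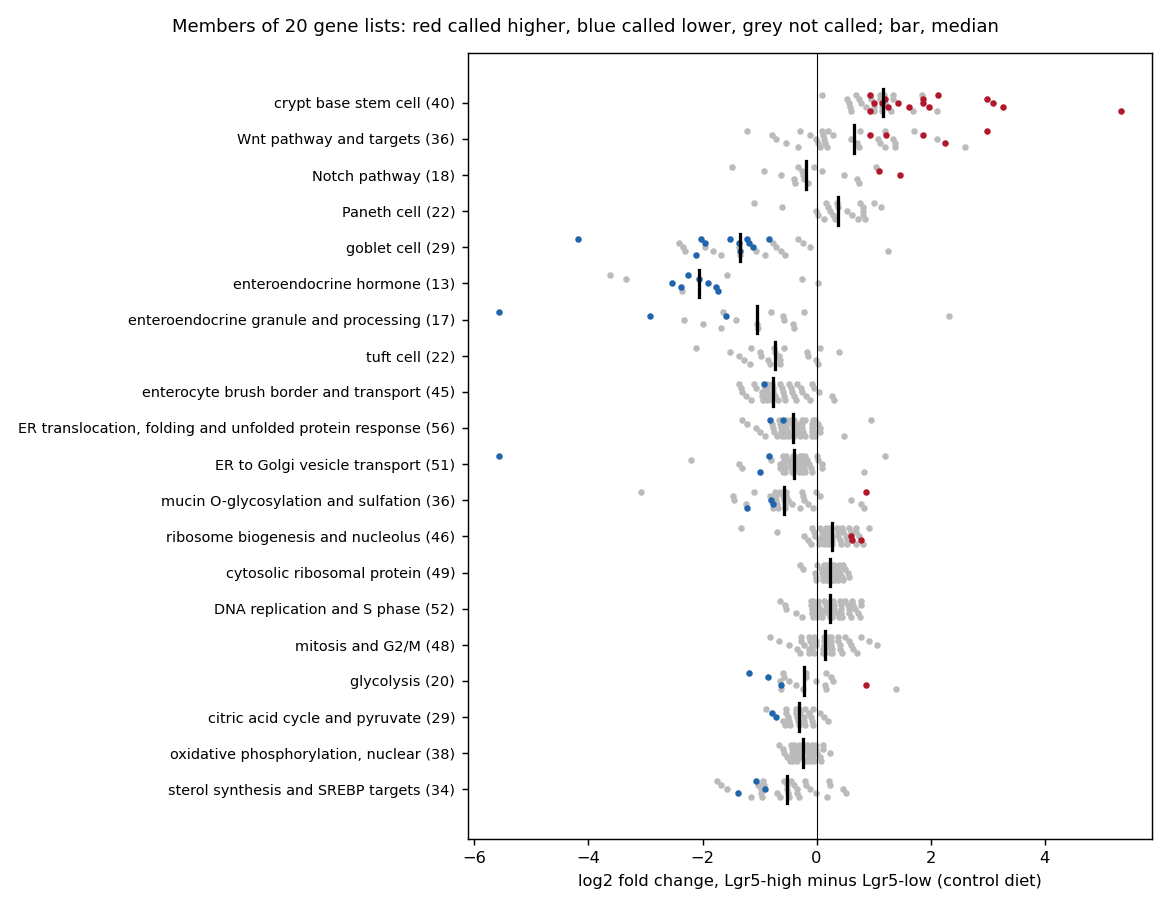
Log2 fold change (Lgr5-high minus Lgr5-low, control diet) of every tested member of 20 gene lists, with the number tested in brackets; red, called higher, blue, called lower, grey, not called, and a bar at the list's median. The crypt base stem cell list lies wholly right of 0 (median 1.16), and the goblet cell and enteroendocrine hormone lists lie mostly left of it (medians -1.34 and -2.06).

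Other mature cell types gave almost no calls. Of 45 enterocyte genes 1 was called lower, although 42 had negative fold changes (median -0.759). It was Khk, the fructose kinase, at 45.8 to 106 CPM against 85.9 to 253 CPM (-0.93 ± 0.23, adjusted p = 0.0258). Its call was lost without any one of Lgr5-low replicates 1 or 2 or Lgr5-high replicates 4, 5 or 7 (adjusted p up to 0.127). Alpi, the brush border phosphatase, also followed the classes. It lay between 86.7 and 103 CPM in the male Lgr5-high libraries against 88.8 and 257 CPM in the male Lgr5-low ones, and between 3.57 and 35.3 CPM against 34.6 and 58.7 CPM in the female ones. It was not called (adjusted p = 0.657, 0.479 with a sex term, and 0.424 and 0.394 within the female and male classes). Enterocyte genes called lower numbered 2 without Lgr5-low replicate 3, 3 within the female class, and 0 without any one of Lgr5-low replicates 1 or 2 or Lgr5-high replicates 4 or 5. None of 22 tuft cell genes was called (1 lower without Lgr5-low replicate 7, Lgr5-high replicate 1 or the libraries under 5 M counts), although 19 had negative fold changes (median -0.733). The tuft cell kinase Dclk1 lay between 0.601 and 12.7 CPM against 0.454 and 19.2 CPM.

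Paneth cells, which sit between the stem cells and secrete antimicrobial peptides, also gave 0 calls among 22 tested genes (median 0.37, and -0.101 within the male class). Fold changes were positive in 19 of the 22. The genes summed to 23200 to 175000 CPM (median 105000) in Lgr5-high and 16300 to 120000 CPM (median 59900) in Lgr5-low libraries. The levels of Lyz1 and Defa30 followed the Xist classes, and the test behind the 0 calls has no term for the class. Lyz1, lysozyme, lay between 1458 and 1684 CPM in the male and 6082 and 11513 CPM in the female Lgr5-high libraries, and between 1071 and 2413 CPM and 2728 and 6376 CPM in the Lgr5-low ones. Within the female class its log2 fold change was 0.74 (adjusted p = 0.374) and within the male class -0.05 (adjusted p = 0.99). Defa30, a defensin, lay between 9872 and 21313 CPM in the female Lgr5-high libraries against 3977 and 8247 CPM in the female Lgr5-low ones, and between 3026 and 3177 CPM against 1218 and 2968 CPM in the male ones. Its groups did not overlap within either class. The adjusted p of Defa30 was 0.335, and 0.0798 with a sex term, 0.104 within the female class and 0.465 within the male class. With a replicate block Defa30 and the defensin Defa3 were called higher (adjusted p = 0.00834 and 0.0183). Values of near-identical defensin genes depend on how the authors' quantification divided shared reads.

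Of the genes of lowest p called lower, several lay outside the goblet and enteroendocrine lists, and Dmbt1 is in the list of absorptive progenitors. Rbp7, a cytosolic retinol-binding protein on chromosome 4, lay between 94.7 and 221 CPM (median 140) in Lgr5-high and between 416 and 1137 CPM (median 559) in Lgr5-low libraries. Krt19, a keratin of simple epithelia, lay between 44 and 75.8 CPM against 76 and 201 CPM, and Dmbt1, a secreted scavenger-receptor protein, between 368 and 972 CPM against 1284 and 1863 CPM. Phgr1, a small protein of the gut epithelium, lay between 14.1 and 30 CPM against 31.3 and 70.4 CPM, and Serpinb6a, an intracellular protease inhibitor, between 54.3 and 117 CPM against 136 and 263 CPM. In all 5 genes the groups did not overlap. Rbp7 had a log2 fold change of -2.07 ± 0.28 (adjusted p = 3.96e-05), and those of the other 4 lay between -1.18 and -1.09. Hepacam2, an immunoglobulin-family membrane protein, lay between 34.9 and 108 CPM against 108 and 312 CPM, the highest in Lgr5-low replicate 1.

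Mptx1, a pentraxin of the small intestine, and Rgs2, which shortens signals of G protein-coupled receptors, were also lower. Mptx1 measured 0.226 to 9.93 CPM against 20.4 to 38.5 CPM (-2.78 ± 0.64, adjusted p = 0.0186), and Rgs2 measured 0.506 to 3.47 CPM against 5.36 to 16 CPM (-2.20 ± 0.48, adjusted p = 0.00961). Neither overlapped. In Lgr5-high libraries Mptx1 measured at most 0.601 CPM in the male class and at least 4.08 CPM in the female class. Over the alternatives its log2 fold change lay between -6.32 and -1.89. Of the 4 nucleosome-binding HMGN genes tested, Hmgn3 was lower at 0.15 to 8.59 CPM against 5.04 to 48.5 CPM (-2.21 ± 0.54, adjusted p = 0.0227). Hmgn1, Hmgn2 and Hmgn5 had positive fold changes from 0.15 to 0.55 and were not called. The call of Hmgn3 was lost without Lgr5-low replicate 2 (adjusted p = 0.0838).

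**Figure D4:**
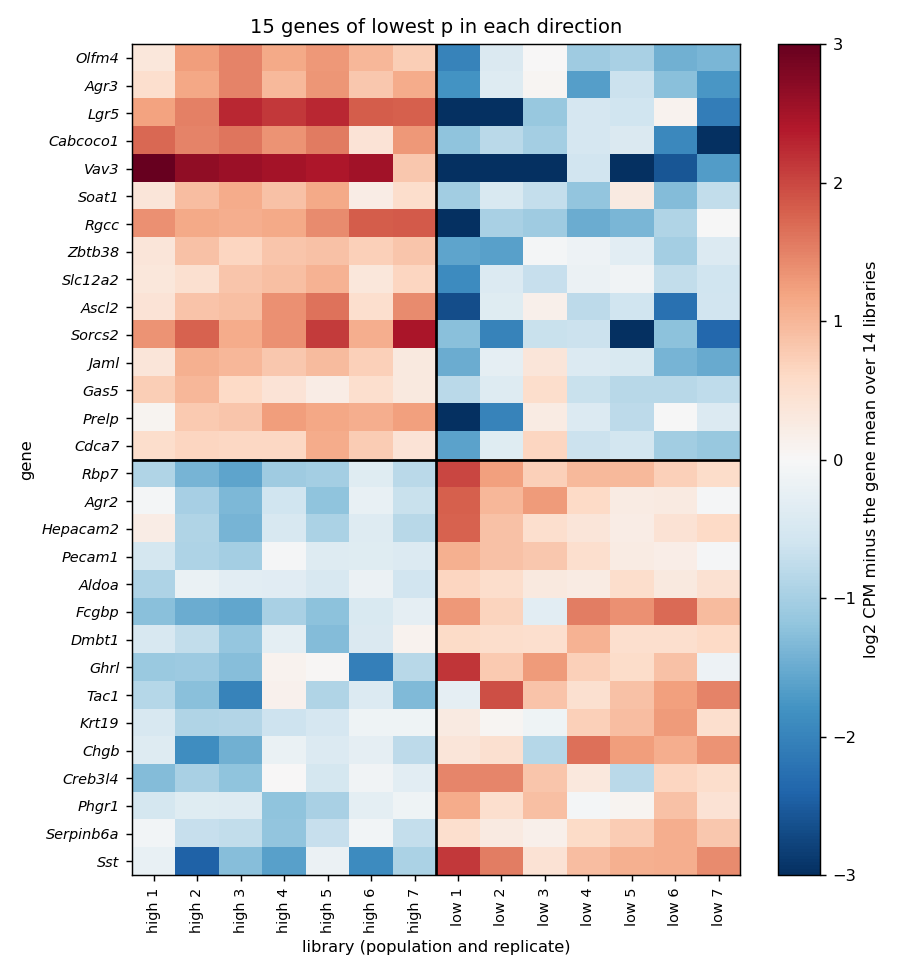
Log2 CPM of the 15 genes of lowest p called higher and the 15 called lower in the 14 control-diet libraries, each centred on its mean; the colour scale ends at 3 log2 units in each direction. Lgr5-low replicate 1 is the lowest of its group in Rgcc and Prelp and the highest in Hepacam2.

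Genes of the nucleolus, where ribosomes are assembled, gave a small set of higher calls. Of 46 tested genes of ribosome biogenesis 3 were called higher, 0 lower, and 38 had positive fold changes (median 0.278). Npm1, the nucleolar chaperone nucleophosmin, lay between 743 and 1079.9 CPM against 444 and 741 CPM, and Dkc1, the pseudouridine synthase of guided RNA modification, between 190 and 258 CPM against 69.3 and 173 CPM. Both were without overlap. Nop56, a core protein of the methylation particles, lay between 220 and 280 CPM against 131 and 227 CPM. The log2 fold changes were 0.61 ± 0.16 for Npm1 (adjusted p = 0.0325), 0.77 ± 0.19 for Dkc1 (0.0227) and 0.63 ± 0.16 for Nop56 (0.0242). The number of higher calls in the list was 7 without Lgr5-low replicate 3 and 0 without Lgr5-low replicate 2, Lgr5-high replicate 1 or the libraries under 5 M counts. It was 1 without Lgr5-low replicate 1 or 7 or Lgr5-high replicate 2, 3 or 6, and 2 without Lgr5-low replicate 6 or Lgr5-high replicate 4, 5 or 7. Leaving out single libraries moved the adjusted p up to 0.108 for Npm1, 0.0601 for Dkc1 and 0.065 for Nop56.

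Of 49 ribosomal protein genes 0 were called, with a median of 0.238 (0.0179 to 0.495 over the alternatives). The number of higher calls was 5 without Lgr5-low replicate 3, 8 without the 3 libraries that stood apart and 26 within the female class. Of 52 genes of DNA replication and 48 of mitosis 0 were called, with medians of 0.241 and 0.143. In replication 2 were higher without Lgr5-low replicate 3, 1 without Lgr5-low replicate 5 and 3 within the female class, and 1 was lower without Lgr5-high replicate 1 or the 3 libraries. In mitosis 1 was higher without Lgr5-low replicate 3, without the 3 libraries and within the female class. Mki67, the proliferation marker, had medians of 148 and 157 CPM (log2 fold change -0.14 ± 0.33, adjusted p = 0.924). Non-coding transcripts were among the higher genes. Gas5, a host gene of small nucleolar RNAs, lay between 470 and 791 CPM against 224 and 580 CPM. The highest Lgr5-low value was that of replicate 3, and the next was 304 CPM. Malat1, a nuclear non-coding RNA singled out after its values were seen, lay between 4766 and 11287 CPM against 1739 and 4719 CPM (0.99 ± 0.23, adjusted p = 0.0186). Its call was lost without Lgr5-low replicate 2 or Lgr5-high replicate 1 (adjusted p up to 0.0729).

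Genes of energy metabolism gave few calls, in both directions. In glycolysis 3 of 20 tested genes were called lower and 1 higher. Aldoa, an aldolase, lay between 68.6 and 116 CPM against 154 and 205 CPM, and Pfkp, a phosphofructokinase, between 16.4 and 46.4 CPM against 52.9 and 92.4 CPM, both without overlap. Gapdh lay between 327 and 542 CPM against 508 and 769 CPM. Hk2, the hexokinase at the entry of the pathway, went the other way at 37.2 to 57.8 CPM against 21.6 to 34 CPM, again without overlap. The log2 fold changes were -0.85 ± 0.15 for Aldoa (adjusted p = 0.00132), -1.18 ± 0.26 for Pfkp (0.0112), -0.63 ± 0.15 for Gapdh (0.0204) and 0.86 ± 0.21 for Hk2 (0.0203). Hk2 lost its call without Lgr5-high replicate 2 (adjusted p = 0.0629), and Gapdh without Lgr5-low replicate 1 or Lgr5-high replicate 4, 5 or 7 (adjusted p up to 0.0725). Without Lgr5-low replicate 7 the list held 5 lower calls.

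In the list of the citric acid cycle and pyruvate 2 of 29 genes were called lower, and 26 had negative fold changes (median -0.315). There was 1 call without any one of Lgr5-low replicates 2, 6 or 7 or Lgr5-high replicates 1 to 5 or 7, and none without Lgr5-low replicate 1. Mdh2, mitochondrial malate dehydrogenase, lay between 617 and 795 CPM against 850 and 1705 CPM, without overlap (-0.71 ± 0.16, adjusted p = 0.0121, and 0.0587 without Lgr5-low replicate 1). Idh1, a cytosolic enzyme of the list rather than of the cycle itself, was the other (-0.78 ± 0.21, adjusted p = 0.0421). Its call was lost without any one of 10 of the 14 libraries, all but Lgr5-low replicates 3, 4 and 5 and Lgr5-high replicate 6 (adjusted p up to 0.134). Without libraries under 5 M counts its adjusted p was 0.251. None of 38 nuclear genes of oxidative phosphorylation and 1 of 13 mitochondrially encoded genes was called. The medians were -0.235 (0.0205 within the female class) and 0.301, and 12 of the 13 mitochondrially encoded genes had positive fold changes. Of the nuclear genes 2 were called lower without Lgr5-low replicate 3, 1 without Lgr5-low replicate 7, and 5 lower and 1 higher within the female class. Of the mitochondrially encoded genes 2 were called higher without Lgr5-low replicate 3 and 0 without Lgr5-high replicate 1. The called gene, mt-Nd4l, measured 94.8 to 372 CPM against 46.5 to 134 CPM (1.09 ± 0.24, adjusted p = 0.0115). The highest value was that of Lgr5-high replicate 1, and without that library the adjusted p was 0.0666. This library also had the largest share of mitochondrially encoded counts in its group, 23%, and the part of that share in the result was not tested.

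Enzymes of cholesterol synthesis and their regulators gave 3 lower calls among 34 tested genes, and 29 had negative fold changes (median -0.518). Lss, which forms the sterol rings, lay between 2.53 and 6.5 CPM against 7.88 and 14.8 CPM, without overlap. Msmo1, a demethylating oxidase, lay between 31.7 and 96.7 CPM against 50.7 and 157 CPM. Their log2 fold changes were -1.37 ± 0.35 and -0.90 ± 0.22 (adjusted p = 0.0274 and 0.0252). The number of calls was 6 without Lgr5-high replicate 1 and 5 without Lgr5-low replicate 3, 2 without Lgr5-high replicate 2, 4 or 7, 1 without Lgr5-low replicate 1, 4 or 6 or Lgr5-high replicate 5, and 0 without Lgr5-high replicate 3 or 6. The adjusted p reached 0.0596 for Lss and 0.108 for Msmo1.

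Among 29 glutathione and NRF2 genes 2 were lower, Gpx1 and Nqo1. There were 4 lower calls without Lgr5-low replicate 3 or Lgr5-high replicate 2, 5 lower and 1 higher within the female class, and 1 lower call without any one of Lgr5-low replicates 1 or 2 or Lgr5-high replicates 4 or 5. Gpx1, a peroxidase, lay between 156 and 204 CPM against 195 and 305 CPM (-0.60 ± 0.13, adjusted p = 0.0114, and 0.0583 with only the 14 control-diet libraries fitted). Nqo1, a quinone reductase, lay between 7.6 and 27.3 CPM against 27.1 and 56.6 CPM (-1.13 ± 0.28, adjusted p = 0.0227). Nqo1 lost its call without Lgr5-low replicate 1 or 2 or Lgr5-high replicate 4 or 5 (adjusted p up to 0.0721). In polyamine and nucleotide synthesis Arg2, a mitochondrial arginase, was lower at 32.1 to 107 CPM against 119 to 250 CPM, without overlap (-1.19 ± 0.26, adjusted p = 0.0093). Cmpk1, a nucleotide kinase, was lower too (-0.95 ± 0.19, adjusted p = 0.00484), and the purine enzyme Paics was higher (0.91 ± 0.24, adjusted p = 0.0366), lost without any one of 10 of the 14 libraries, all but Lgr5-low replicates 2, 3 and 4 and Lgr5-high replicate 1 (adjusted p up to 0.1). None of 31 genes of fatty acid oxidation and none of 31 amino acid transporters and ATF4 targets was called.

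Markers of other cells were measured to see what else the sorted populations held. Pecam1, an adhesion molecule best known from endothelium and blood cells, was lower in Lgr5-high libraries, at 62.5 to 123 CPM against 124 to 266 CPM. Of the 4 other tested members of the endothelial and erythroid list none was called and all had positive fold changes. Myeloid genes summed to 111 to 199 CPM in Lgr5-high and 80.7 to 231 CPM in Lgr5-low libraries, with 0 of 21 called. T cell genes summed to 16.9 to 137 CPM against 20.8 to 183 CPM, with 0 of 12 called, and Cd4, Cd2 and Il22 had no counts in any of the 14 libraries. B cell genes and stromal genes gave 0 calls of 6 and of 2. Hepatocyte genes summed to 1310 to 2630 CPM against 1160 to 2480 CPM, with 1 of 20 called. It was Cyp2e1, a drug-metabolising cytochrome, at 95.2 to 225 CPM against 26.8 to 133 CPM (1.45 ± 0.29, adjusted p = 0.00533). Alb, the defining hepatocyte gene, lay between 69.4 and 195 CPM against 76.3 and 283 CPM and was not called (adjusted p = 0.834).

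Of the 225 called genes 13 averaged under 2 CPM, and 6 of those called had no counts in all 7 libraries of 1 population. Zc3h3, a zinc finger protein of RNA export, lay between 0.714 and 5.32 CPM in Lgr5-high libraries and had 0 counts in every Lgr5-low library, so its mean was at least 45.2-fold higher against a floor of 3 counts over the group. Acss3 and Ccdc3 were at least 32.1-fold and 19.3-fold higher by the same measure, although 2 and 1 of the 7 Lgr5-high libraries had 0 counts. Alppl2, an alkaline phosphatase near Alpi on chromosome 1, had 0 counts in all Lgr5-high libraries and a median of 2.34 CPM in Lgr5-low libraries, at least 79.4-fold lower. Gm43259, a predicted gene, was at least 57.1-fold lower in mean, but 3 of 7 Lgr5-low libraries had 0 counts too. Its Lgr5-low median was 0.112 CPM, and its highest value, 9.18 CPM, was that of Lgr5-low replicate 7. Tsix, also without counts in Lgr5-low libraries, is antisense to Xist, and reads of the pair may not have been told apart. Its mean was at least 24.9-fold higher, but Lgr5-high replicates 1 to 3, the male class, had 0 counts too. Lgr5-high replicates 4 to 7, the female class, measured 0.13 to 3.22 CPM. The call of Tsix was lost without any one of 10 of the 14 libraries (adjusted p up to 0.0977). These were all but Lgr5-low replicate 3 and Lgr5-high replicates 1 to 3. Acss3 was lost without Lgr5-low replicate 4 or 6 or Lgr5-high replicate 5 (up to 0.0579), Ccdc3 without any one of Lgr5-low replicates 1 or 4 to 6 (0.0599), and Gm43259 without Lgr5-low replicate 6 or 7 or any Lgr5-high library (0.134). Ccdc3 was tested in only 12 of the 14 fits that left out 1 library. These genes were singled out after their values were seen, and the bounds cover counting error only.

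The same difference was measured in the libraries of the cystine diet, where 330 genes were called (2.64%), 138 higher (1.1%) and 192 lower (1.54%). Of the 98 genes higher on control diet 97 had the same sign there and 36 were called, and of the 127 lower genes 124 had the same sign and 64 were called. The 100 shared calls are 44.4% of the control-diet calls and 30.3% of the cystine-diet calls. The median log2 fold changes of the called genes were 1.15 and -1.12 on control diet and 0.821 and -0.92 on cystine diet, where genes called on one diet are read on the other without that selection. Myeloid markers also differed there, with 13 of 21 called higher in Lgr5-high libraries (median 2.29, against 0.479 and 0 calls on control diet), and their part in the result was not tested. With the 6 genes at their bounds the control-diet medians were also 1.15 and -1.12.

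Some genes held their size on the cystine diet. Agr3 had a log2 fold change of 2.51 there (adjusted p = 6.27e-07), Ascl2 1.83 (0.000935) and Rgmb 1.69 (2.43e-05). Among lower genes Aldoa had -1.02 (0.000151), Krt19 -1.16 (0.000935) and Hepacam2 -1.36 (0.000829). Others were smaller there and not called. Rgcc had 2.60 on control and 0.50 on cystine diet (adjusted p = 0.619), Cabcoco1 2.50 and 0.92 (0.167), Sorcs2 3.276 and 1.13 (0.293) and Vav3 5.35 and 2.12 (0.107). The difference between diets was tested gene by gene. None of the 12495 genes passed in edgeR or DESeq2, 6 passed in limma-voom, and 415 had an unadjusted p under 0.05 in edgeR (3.32%). The unadjusted p of that difference in edgeR was 0.000687 for Rgcc, 0.00312 for Cabcoco1, 0.00756 for Sorcs2 and 0.00369 for Vav3. These genes were picked among the lowest p on control diet for being smaller on cystine diet. The test of the difference reuses those control-diet values, so these unadjusted p-values are biased low. None of them passed after adjustment in edgeR. The 4 genes with opposite signs were Zc3h3, Btd, Gm43259 and Sap18b, of which only Sap18b averaged above 2 CPM. Sap18b lost its control-diet call without Lgr5-low replicate 1 or 2 or any Lgr5-high library (adjusted p up to 0.153), and Btd without Lgr5-low replicate 5 or any one of Lgr5-high replicates 2, 3, 5, 6 or 7 (up to 0.0647).

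**Figure D5:**
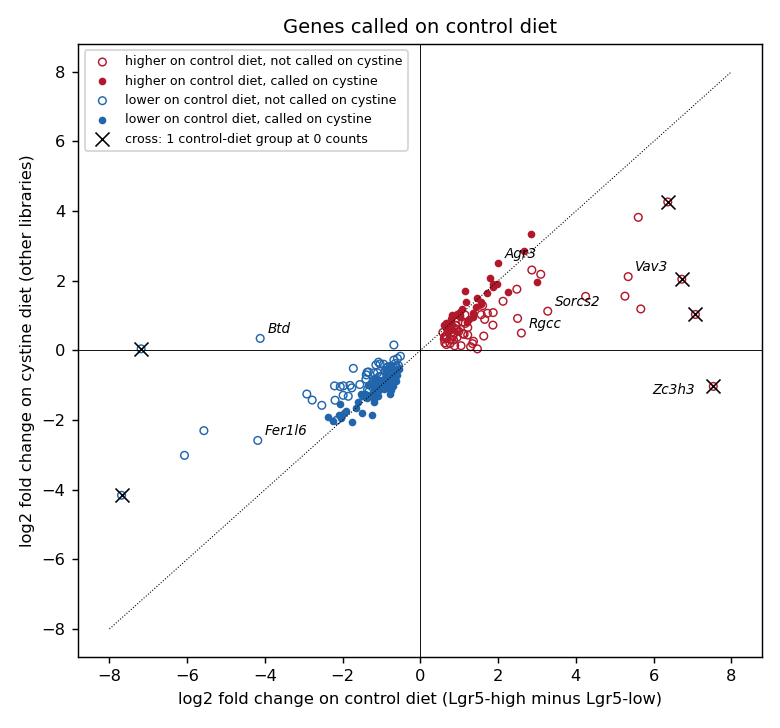
Log2 fold changes (Lgr5-high minus Lgr5-low) of the 225 genes called on control diet, on the control diet (horizontal) and in the separate cystine-diet libraries (vertical); filled points were called on both diets, the dotted line marks equal values. All but 4 points lie in the quadrants of equal sign, and Vav3, Sorcs2 and Rgcc lie below the line.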

How the data were processed

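Poly(A) RNA libraries were analysed from 28 samples in 4 groups of 7. The authors deposited estimated counts per gene as whole numbers, made with Salmon 1.3.0 on mm10 per the submitters' processing notes; whether strand was used is not given in the sources used here. Groups came from the labels. edgeR 4.0.16 (R 4.3.3) fitted all 28 libraries with TMM factors, filterByExpr and a robust quasi-likelihood test, and genes were called at a Benjamini-Hochberg adjusted p under 0.05. The standard error is the size of the log2 fold change divided by the root of F. Alternatives used DESeq2 1.42.0, limma 3.58.1, other filters and scalings, a sex term (Xist over 50 CPM), a replicate block and left-out libraries. Gene identifiers were matched to GENCODE coordinates for 12475 of 12495 tested genes.

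Named genes were, in each direction, the 15 called genes of lowest p averaging at least 2 CPM, up to 4 called members of each of 54 lists (2 members of lowest p where fewer than 2 were called), a fixed set and all members of small families. A further 25 were chosen after their values were seen, as were the list members picked for their sign or size. The members and lists were chosen with earlier results of these data known. In data simulated for this comparison over 11995 genes, 26.3% of 2-fold and 65.6% of 4-fold changes were recovered, with 4 false calls among 11804 unchanged genes. Total counts per library limit the precision for rare transcripts: a floor of 3 counts equals 0.134 CPM in the deepest Lgr5-low and 0.889 CPM in the shallowest Lgr5-low library. Bounds and floors cover counting error only. Some members of the lists are counted in the totals but not reported here by name.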

Additional observations from a re-analysis of the deposited data

Results flagged for a closer look

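In 19 of 214 groups of 7 libraries checked, 1 library lay far from the other 6, judged by its gap to the nearest of them as a share of the group's range, on a log scale for genes. Chance alone gives about 5% of groups.

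Lgr5-high replicate 1 was set apart most often in its group. It had 4.05 M total counts, where the others had 13.1 to 21.4 M. In CPM it held 1080 of Npm1 (others 743 to 824), 372 of mt-Nd4l (94.8 to 146), 11300 of Malat1 (4770 to 6430) and 30.6 of Prelp (50.5 to 69.3). Lgr5-low replicate 1 had 0.337 CPM of Rgcc (others 2.76 to 8), 55.5 of Slc12a2 (122 to 192), 4.89 of Myc (12.2 to 18.6), 312 of Hepacam2 (108 to 171) and 237 of Gcg (69 to 111). Lgr5-low replicate 3 had 580 CPM of Gas5 (others 224 to 304), 227 of Nop56 (131 to 164) and 0.454 of Dclk1 (7.11 to 19.2).

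Single values stood out in other libraries. Dmbt1 measured 1860 CPM in Lgr5-low replicate 4 (others 1280 to 1380), and Neurod1 had 0 counts in Lgr5-low replicate 7 (1.52 to 7.08 CPM). In Lgr5-high libraries Cabcoco1 measured 11.6 CPM in replicate 6 (21.8 to 29.4), Gpx1 204 CPM in replicate 2 (156 to 175), Cck 0.0751 CPM in replicate 3 (1.56 to 5.82) and Btd 0.655 CPM in replicate 4 (0 to 0.15).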

How the results depend on the processing

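The 225 calls on control diet became 410 with DESeq2, 781 with limma-voom, 144 with no filter on low counts, 127 when only the 14 control-diet libraries were fitted, 450 with a sex term, 674 within the female class, 31 within the male class and 449 without the 3 libraries that stood apart, an alternative chosen after seeing the data. Leaving out 1 library gave 124 to 456 calls. Other size factors (221), a filter of 1 CPM (235), thinning to the shallowest library (212) and leaving out libraries under 5 M counts (159) stayed within 1.5 times. The share of calls that were higher was 43.6%, and 61%, 16.1% and 56.3% in the female class, the male class and without the 3 libraries. Those 3 libraries are all of the male class. With a replicate block 409 genes were called in edgeR, the Paneth cell genes Defa30 (adjusted p = 0.00834) and Defa3 (adjusted p = 0.0183) among them. Same-numbered libraries correlated at 0.073 to 0.24 in their deviations, over 0.1 in 4 of 7 pairs, and differently numbered ones at -0.16 to 0.16. In 4 of 7 the own number matched best, and the Xist classes of the 2 populations matched by number. The main fit did not take the numbers as pairs, and whether same-numbered libraries share an animal was not tested. The share of calls with the same sign on cystine diet, 98.2%, was 95.1% with DESeq2, 95% for the female libraries and 100% for the male ones. The difference between diets gave 6 calls with limma-voom, 1 without libraries under 5 M counts and 2 in the female class, against 0. The log2 difference in total counts passed without libraries under 5 M counts (0.769, exact permutation p = 0.039) and without the 3 libraries (1.13, p = 0.0325); leaving out 1 library gave 0.654 to 1.15. The cause of these changes was not tested. The 30 genes of lowest p kept their calls under every alternative run other than the 2 classes. Changes of 2-fold were often missed at this depth and spread.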
